A study of Mus musculus with 8 samples.

Results

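Respiratory complex I is represented on these arrays by 72 probes for 47 genes, out of 56605 probes in all. They were chosen by name: every non-control probe whose gene name in the scanner files begins with Nduf, then a, b, c, s, v or af, and then a number. Of the 47 genes, 39 carry a subunit name (59 probes) and 8 carry an assembly factor name, Ndufaf (13 probes). The cells were CD11b+ cells, sorted magnetically from the brains of 7-day-old male C57BL/6N mice. CD11b is a surface integrin chain of microglia and other myeloid cells. The mice had received lipopolysaccharide (LPS), a bacterial cell wall component that triggers innate immunity, or saline, and were sampled 24 h later. There were 4 LPS tubes and 4 saline tubes, each pooling 2 brains and each giving 1 single-colour Agilent array, so a replicate is a pool of 2 mice. The numbers 1 to 4 given here to the arrays of a group follow the order of deposition. The labels pair no samples, but an LPS and a saline array with the same number lay in the same column of the slide.

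Complex I, the NADH:ubiquinone oxidoreductase, is the largest enzyme of the respiratory chain. It sits in the inner mitochondrial membrane, takes electrons from NADH, hands them to ubiquinone and pumps protons. An N module binds NADH, a Q module reduces ubiquinone, and a membrane arm with a proximal and a distal part carries the proton pumps. Core subunits hold the flavin and iron-sulfur clusters, supernumerary subunits surround them, and assembly factors help build the enzyme without staying in it. Macrophages and microglia are known to change their use of respiration and glycolysis after LPS.

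Among the 39 subunit-named genes, 36 were higher in LPS cells, 1 was lower and 2 did not pass the test, with a median log2 difference (LPS minus saline) of 0.64. All 8 assembly factors were higher, with a median of 0.55 and a range of 0.43 to 0.75. Over the 22509 genes tested, 27.8% were called higher and 21.5% lower, 49.3% in either direction, and the median difference was 0.02. A gene counted as called at an adjusted p under 0.05 in limma's moderated test, with Benjamini-Hochberg adjustment over all 22509 genes. A value in the text below is a log2 processed signal minus the 75th percentile of its own array, and a difference is LPS minus saline in the same log2 unit, with its standard error.

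The differences were modest in size. Of the members past the test, 29 differed by 1.5-fold or more and 1 by 2-fold or more. The shares of all genes past these cut-offs were not counted, so these counts describe only size. On 43 of the 47 genes every LPS array lay above every saline array, a separation that 25.8% of all genes tested showed, and on 1 every LPS array lay below, as for 18.9% of all genes. The exceptions were Ndufa1, Ndufa6 and Ndufaf8, in which the groups overlapped. All 47 genes were well above background on all 8 arrays, so none of them is a bound.

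**Figure D1:**
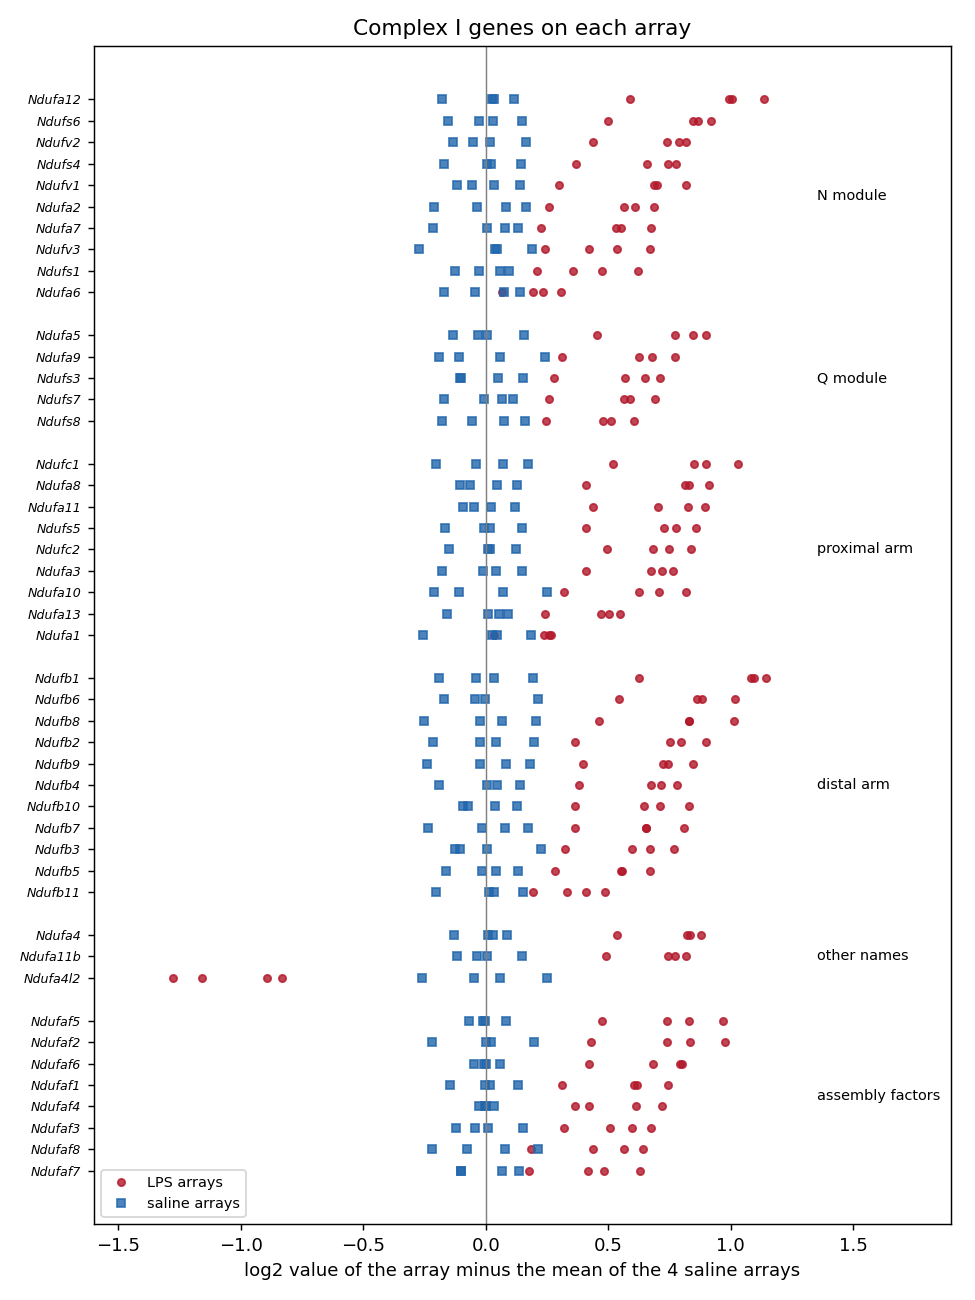
Log2 values of complex I genes on each array, minus the mean of the 4 saline arrays (horizontal axis, log2 units), grouped by module, with LPS arrays as circles and saline arrays as squares. In nearly every gene the 4 LPS circles lie to the right of the 4 saline squares, with 1 LPS array nearer to saline than the other 3; Ndufa4l2 lies to the left.

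The subunits that bind NADH and carry its electrons were all higher in LPS cells. Ndufv1, the flavin-bearing subunit that accepts electrons from NADH, had values of 5.32, 5.19, 4.80 and 5.20 on the LPS arrays, against 4.64, 4.53, 4.39 and 4.44 on the saline arrays. The groups did not overlap, and the difference was 0.63 ± 0.12 (limma, adjusted p = 0.00428). Ndufv2, its iron-sulfur partner, averaged 4.89 ± 0.18 in LPS cells and 4.20 ± 0.13 in saline cells (SD, n = 4 each), a difference of 0.70. Ndufs1, the largest subunit of the N module and a carrier of several iron-sulfur clusters, averaged 4.15 ± 0.18 in LPS cells and 3.74 ± 0.10 in saline cells. Its difference of 0.42 was the smallest among the 7 core subunits encoded in the nucleus. With the mean of its probes in place of the brightest it was 0.11 and did not pass (limma, adjusted p = 0.371). The further Ndufs1 probe in that mean was far dimmer, with a mean log2 signal (before scaling) of 3.60 against 11.4, and differed by -0.20 ± 0.22.

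The core subunits of the Q module moved the same way. Ndufs3 had values of 5.59, 5.45, 5.16 and 5.53 on the LPS arrays and 5.03, 4.93, 4.78 and 4.78 on the saline arrays. It differed by 0.55 ± 0.11 (limma, adjusted p = 0.00534), without overlap. Ndufs7, which holds the last iron-sulfur cluster before ubiquinone, differed by 0.52 and Ndufs8, which carries further iron-sulfur clusters, by 0.46. Under quantile normalization Ndufs8 differed by 0.10 and did not pass (limma, adjusted p = 0.103). All 7 core subunits passed the test, with a median of 0.52, and 27 of the 29 supernumerary subunits placed in a module passed it, with a median of 0.64; the difference between these medians was not tested.

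The supernumerary subunits held the largest increases. Ndufb1, a small subunit of the distal membrane arm, had values of 5.86, 5.81, 5.34 and 5.80 on the LPS arrays, against 4.91, 4.75, 4.52 and 4.68 on the saline arrays. Its difference of 0.99 ± 0.14 is a 1.98-fold higher signal in LPS cells (limma, adjusted p = 0.00123). LPS array 3 lay below the other 3 LPS arrays and still above every saline array. The probe behind these values lies at chr12:103207735-103207794 on the minus strand (mm9), and its sequence is shown because it carries the largest increase of the set, in lower case throughout since it has no marked part.
Ndufb1 probe: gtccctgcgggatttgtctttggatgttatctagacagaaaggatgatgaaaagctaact

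Ndufa12, an N module subunit, came next, with values of 6.13, 6.00, 5.58 and 5.99 on the LPS arrays and 5.11, 5.03, 4.82 and 5.02 on the saline arrays. The difference was 0.93 ± 0.13 (limma, adjusted p = 0.00122), and the groups lay well apart. Ndufs6, another N module subunit, which binds zinc, averaged 6.44 ± 0.19 in LPS cells and 5.66 ± 0.13 in saline cells (SD, n = 4 each). Ndufb6 and Ndufb8, both of the distal arm, differed by 0.83 and 0.78. Ndufc1, of the proximal arm, differed by 0.82, with 5.84 ± 0.22 in LPS cells and 5.02 ± 0.16 in saline cells.

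By module, 9 of 10 N module genes were higher in LPS cells (median 0.58), as were all 6 Q module genes (median 0.54), 8 of 9 genes of the proximal membrane arm (median 0.69) and all 11 of the distal arm (median 0.64). No gene placed in a module was lower. The differences ran from 0.20 to 0.93 in the N module, 0.46 to 0.74 in the Q module, 0.20 to 0.82 in the proximal arm and 0.36 to 0.99 in the distal arm. The range of the Q module thus lay inside those of the other modules. The proton-pumping core subunits of the membrane arm are encoded in the mitochondrial genome and were not analysed here.

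**Figure D2:**
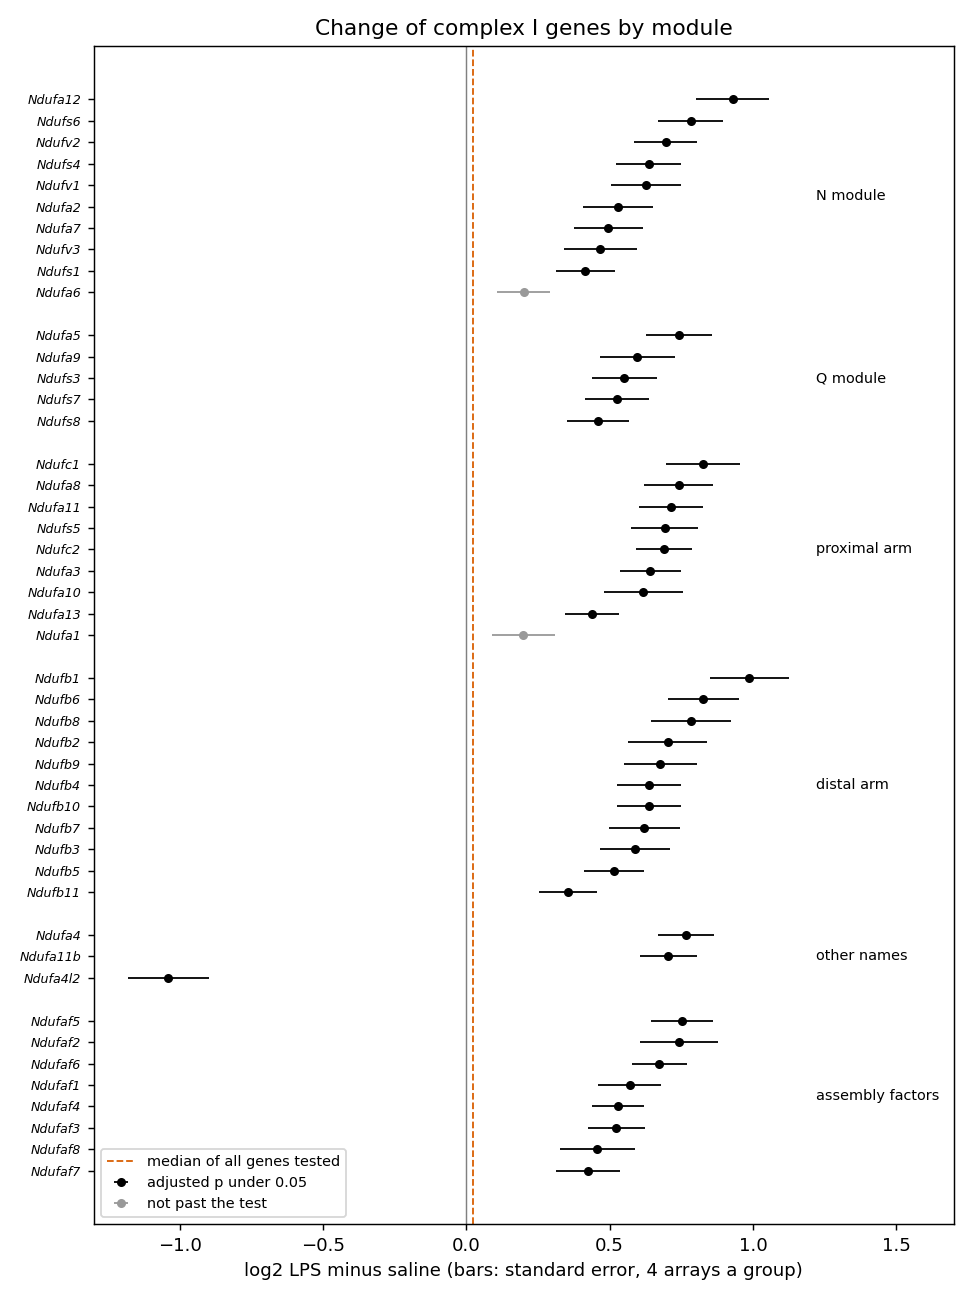
Log2 difference, LPS minus saline, of complex I genes with their standard errors (4 arrays a group), ordered within modules; black points passed the test, grey points did not, and the dashed line is the median of all genes tested (0.02). The modules overlap, the assembly factors lie between 0.43 and 0.75, and Ndufa4l2 stands at -1.04.

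The 2 subunits that did not pass were picked out after their values were seen. Ndufa6, placed here in the N module, averaged 5.95 ± 0.10 in LPS cells and 5.75 ± 0.14 in saline cells (SD, n = 4 each), a difference of 0.20 ± 0.09 (limma, adjusted p = 0.102). Ndufa1, a small subunit of the proximal arm, had values of 5.78, 5.81, 5.57 and 5.80 on the LPS arrays, against 5.73, 5.56, 5.29 and 5.58 on the saline arrays. Its difference was 0.20 ± 0.11 (limma, adjusted p = 0.156), and the lowest LPS array lay under the 2 highest saline arrays. Both differences passed with slide column as a block (limma, adjusted p = 0.0421 for Ndufa1 and 0.0218 for Ndufa6), a fit that called 33.3% of all genes higher and 27.2% lower. Both turned to the opposite sign under quantile normalization. There Ndufa1, at -0.16, did not pass (limma, adjusted p = 0.0719), while Ndufa6, at -0.17, was called lower in LPS cells (limma, adjusted p = 0.0169).

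The 8 assembly factors were all higher in LPS cells. Ndufaf5, which in human cells hydroxylates an arginine of Ndufs7 during assembly, had values of 0.65, 0.43, 0.16 and 0.51 on the LPS arrays, against -0.23, -0.38, -0.32 and -0.32 on the saline arrays. The groups did not overlap, and the difference of 0.75 ± 0.11 was the largest of the 8 (limma, adjusted p = 0.00139). Ndufaf2, a paralogue of Ndufa12 that binds the enzyme before Ndufa12 takes its place, had values of 2.32, 2.18, 1.77 and 2.08 in LPS cells and 1.54, 1.37, 1.12 and 1.34 in saline cells, a difference of 0.74 ± 0.14 (limma, adjusted p = 0.00331). Both members of that pair thus rose.

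Ndufaf3 and Ndufaf4, which work together on the early Q module, differed by 0.52 and 0.53. Ndufaf4 averaged 0.15 ± 0.17 in LPS cells and -0.38 ± 0.03 in saline cells, and Ndufaf3 averaged 1.18 ± 0.15 in LPS cells and 0.66 ± 0.12 in saline cells (SD, n = 4 each). Ndufaf1, a component of the intermediate complex that builds the membrane arm, differed by 0.57, and Ndufaf6, an early assembly factor, by 0.67. Ndufaf7, a methyltransferase, differed by 0.43 ± 0.11, the smallest of the 8 (limma, adjusted p = 0.0147). With the brightness of each array as a covariate, Ndufaf7 differed by 0.19 (limma, adjusted p = 0.0702).

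Ndufaf8, known from human cells as a partner of Ndufaf5, was the assembly factor with overlapping groups. Its values were 0.66, 0.58, 0.20 and 0.45 on the LPS arrays and 0.23, 0.10, -0.20 and -0.06 on the saline arrays, so that LPS array 3 lay under saline array 1. The difference was 0.46 ± 0.13 (limma, adjusted p = 0.0207), and it no longer passed without LPS replicate 1 or 2 or without saline replicate 3 or 4, at adjusted p between 0.0532 and 0.0585, or with array brightness as a covariate, at 0.17 (adjusted p = 0.107).

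A further pair of genes bears complex I names although the proteins are counted elsewhere, and they moved in opposite directions. Ndufa4, which is now assigned to cytochrome c oxidase (complex IV), had values of 5.10, 5.06, 4.76 and 5.04 on the LPS arrays, against 4.31, 4.23, 4.09 and 4.25 on the saline arrays. The difference was 0.77 ± 0.10, with the lowest adjusted p among the members (limma, adjusted p = 0.000975). Ndufa4l2, its paralogue, known as a gene induced by hypoxia, was the only member that fell, with values of -1.50, -1.62, -1.17 and -1.24 on the LPS arrays, against -0.39, -0.60, -0.09 and -0.28 on the saline arrays. Every LPS array lay below every saline array, and the difference was -1.04 ± 0.14, a signal 0.49 times that of saline cells (limma, adjusted p = 0.00116). Its probe lies at chr10:126954149-126954208 on the plus strand (mm9).

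Ndufa4l2 is also known as a pericyte gene, and markers of these vessel-wall cells were lower in LPS samples too. Of 7 pericyte markers, a list drawn up after the values were seen, 6 were lower and 1 did not pass the test, with a median difference of -0.90. Over all genes tested, 21.5% were called lower. All were above background, 1 of them (Cspg4) also stands among the oligodendrocyte lineage markers, and their summed level (on a linear scale relative to each array's 75th percentile) was 5.97 to 8.91 on the LPS arrays, against 13.6 to 19.0 on the saline arrays. The part of these cells in the fall of Ndufa4l2 was not tested. In bulk RNA of this kind, fewer cells of a type and less of an RNA per cell cannot be told apart.

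Ndufa11b is annotated as a transcribed pseudogene related to Ndufa11, a subunit that links the proximal and distal membrane arms. These genes, named after their values were seen, differed alike, with 0.71 for Ndufa11b and 0.71 for Ndufa11. Ndufa11 averaged 2.71 ± 0.20 in LPS cells and 1.99 ± 0.09 in saline cells, and Ndufa11b 1.67 ± 0.15 in LPS cells and 0.97 ± 0.11 in saline cells (SD, n = 4 each). Whether each probe reads only its own gene was not tested, so the value of Ndufa11b is uncertain.

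Several genes were read by more than 1 probe, which gave a check on the values above. Of the 72 probes, 68 passed the filter on dim signals, and 57 of these were higher in LPS cells and 1 lower, where 25.7% of the 35494 probes tested were called higher and 21.8% lower. For 19 genes there was more than 1 probe. Of the 21 further probes that passed the filter, 13 were called in the same direction as the probe used for the gene, none in the opposite direction, and 8 did not pass the test. Further probes designed on a curated RefSeq coding transcript were called in 8 of 10 cases. Those designed on other transcripts, among them a noncoding RefSeq transcript of Ndufa7, were called in 5 of 11. Signal differed as well. The 8 that did not pass were dim, with mean log2 signals (before scaling) of 2.58 to 5.99. Most of the 13 called were brighter, except for probes of Ndufaf6 (3.60) and Ndufv3 (4.40). Transcript type and signal were not told apart.

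Ndufa10, a proximal arm subunit named here after its values were seen, shows both outcomes. The probe used and a further one, both on the curated transcript, differed by 0.62 ± 0.14 and 0.62 ± 0.13 (limma, adjusted p over probes 0.00794 and 0.00608). The remaining probe, on another transcript model, differed by 0.07 and did not pass. It was dimmer, with a mean log2 signal of 5.99 against 11.4 for the probe used. Ndufaf5 likewise had a probe at 0.75 and a further probe, on the same curated transcript, at 0.23 ± 0.17 (limma, adjusted p over probes 0.282). Their mean log2 signals were 7.48 and 5.36. These probes are printed because they show which stretch of each transcript the values come from; each has 60 bases, and those with a longer span in the file annotation lie on separate stretches of genome. On mm9 they lie at chr1:94348635-94348694 (minus strand, Ndufa10, used), chr1:94361039-94363996 (minus strand, Ndufa10, further), chr2:140014595-140019324 (plus strand, Ndufaf5, used) and chr2:139996598-139996657 (plus strand, Ndufaf5, further).
Ndufa10 used probe: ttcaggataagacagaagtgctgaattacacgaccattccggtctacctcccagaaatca
Ndufa10 further probe: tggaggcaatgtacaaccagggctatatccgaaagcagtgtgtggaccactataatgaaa
Ndufaf5 used probe: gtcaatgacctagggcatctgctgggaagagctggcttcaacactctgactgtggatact
Ndufaf5 further probe: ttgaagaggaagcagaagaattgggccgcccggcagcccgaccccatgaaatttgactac

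Within each group the members moved together from array to array. LPS array 3 gave the lowest LPS value in 45 of the 47 genes and LPS array 1 the highest in 45, while saline array 3 gave the lowest saline value in 39. Relative to the saline mean, the median of the subunit-named genes was 0.81, 0.68, 0.36 and 0.67 on LPS arrays 1 to 4, against 0.15, 0.04, -0.17 and -0.02 on saline arrays 1 to 4. For the assembly factors it was 0.73, 0.60, 0.37 and 0.62 on the LPS arrays and 0.11, 0.02, -0.11 and -0.01 on the saline arrays. The lowest LPS array thus stood above the highest saline array in both sets.

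The brightness of the arrays ran against these values, in that the brightest array of each group gave its lowest medians. LPS array 3 and saline array 3 were the brightest arrays of their groups, with median processed signals of 17.3 and 21.5 fluorescence units, and the median signal was 11.7 to 17.3 on LPS arrays, against 15.5 to 21.5 on saline arrays. The share of spots well above background was 58.6% to 63.2% on LPS arrays and 61.9% to 66.0% on saline arrays. Without both brightest arrays, an alternative chosen after seeing the data, the counts were again 36 higher and 1 lower among the subunit-named genes and 8 of 8 among the assembly factors, where 30.4% of all genes were called higher and 23.2% lower.

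Each slide column held 1 LPS and 1 saline array, so the difference can also be read within columns. Within columns 1 to 4 the subunit-named genes had median differences of 0.64, 0.66, 0.53 and 0.73, with 38 of 39 above 0 in every column; over all 8 arrays, 51.8% of all genes tested had a difference above 0. The assembly factors had 0.65, 0.59, 0.43 and 0.62, with 8 of 8 above 0 in every column. Ndufa4l2 was lower in every column, by -1.11, -1.02, -1.08 and -0.95.

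**Figure D3:**
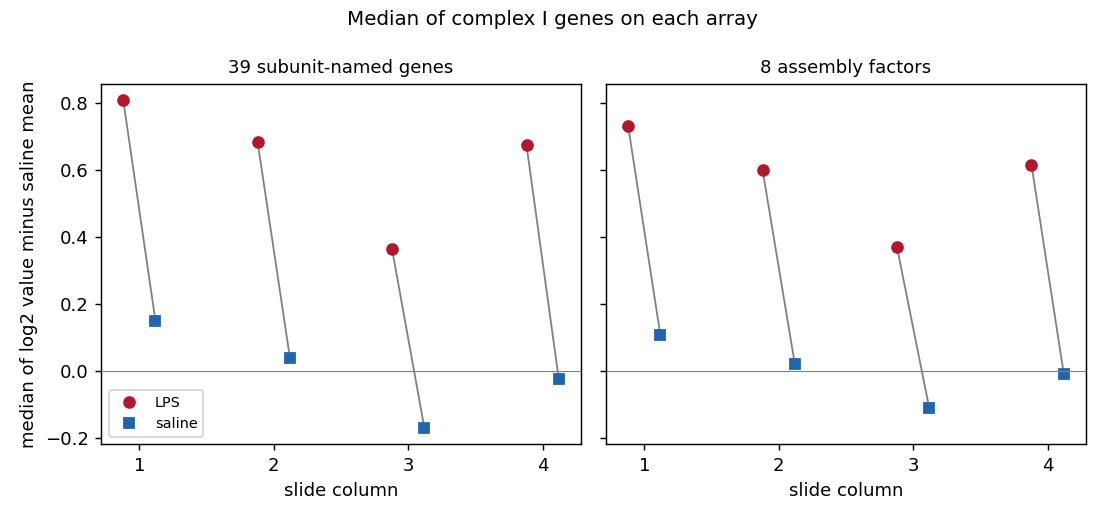
Median over the 39 subunit-named genes (left) and the 8 assembly factors (right) of the log2 value minus the saline mean, for the LPS array (circle) and the saline array (square) of each of the 4 slide columns, joined by a line. LPS lies above saline in every column, and both arrays of column 3 are the lowest of their groups.

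Bright genes in general shifted upward in this comparison. Of the 1885 genes tested whose mean value lay between 4 and 6, 55.0% were called higher, with a median difference of 0.33, and the 25 members in that range had a median of 0.64 with 23 called higher. Of the 902 genes above 6, 56.2% were called higher (median 0.34), and all 7 members there were called higher, with a median of 0.62. In contrast, 13.7% of the 11674 genes below 0 were called higher, with a median of -0.18. Between 0 and 2, 34.0% of 4311 genes were called higher (median 0.09), as were all 7 members there (median 0.67). Between 2 and 4, 44.4% of 3737 genes were called higher (median 0.20), as were all 6 members there (median 0.67). Those 2 ranges hold the assembly factors other than Ndufaf4. Only 2 members, Ndufaf4 and Ndufa4l2, lay below 0, where 26.1% of genes were called lower. The shares among bright genes are thus the nearer background for most members.

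The way the arrays were scaled changed the size of the differences and a few calls. Quantile normalization removed the shift of bright genes (median 0.01 for genes between 4 and 6) and gave a median of 0.31 for the subunit-named genes, with 31 higher and 2 lower, and 0.51 for the assembly factors, with 8 higher. Under it 25.2% of all genes were called higher and 24.9% lower. With the brightness of each array (its median signal) as a covariate the medians were 0.39 and 0.40, with 34 of 39 and 6 of 8 genes higher, where 18.4% of all genes were called higher and 14.9% lower. Scaling to the array median gave 0.85 and 0.76, but there the median of all genes also moved, to 0.24. Ndufb1, Ndufa12, Ndufaf5 and Ndufa4l2 kept their direction and their call under every alternative tried, with differences of 0.66 to 1.20, 0.58 to 1.14, 0.49 to 0.97 and -1.19 to -0.60.

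**Figure D4:**
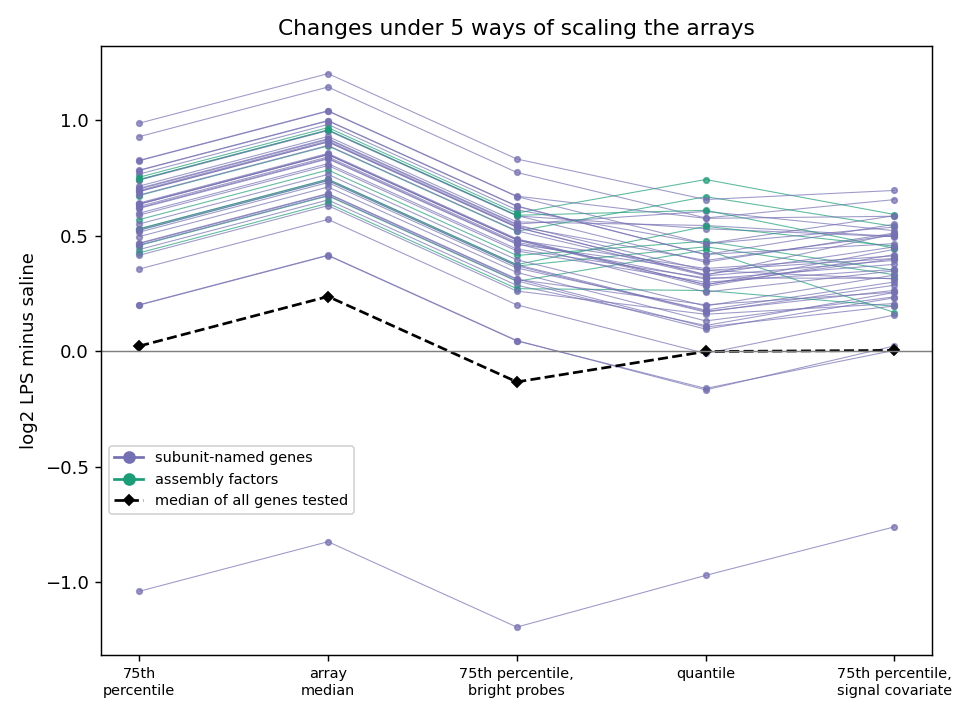
Log2 difference, LPS minus saline, of each complex I gene (lines; subunit-named genes and assembly factors in separate colours) under 5 ways of scaling, with the median of all genes tested as a dashed line. Most lines stay above the dashed line throughout; with quantile normalization Ndufa1 (-0.16) and Ndufa6 (-0.17) fall under it and Ndufb11 (-0.0098) lies just under it, and Ndufa4l2 lies below in all 5.

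Complex I genes outside the name rule, from a list of assembly factors and the acyl carrier subunit, rose less uniformly. Of the 10 measured, 8 were higher in LPS cells, none was lower and 2 did not pass, with a median of 0.40, where 27.8% of all genes were called higher. Ndufab1, the mitochondrial acyl carrier protein that is built into complex I, differed by 0.74, Timmdc1, a membrane arm assembly factor, by 0.62 (0.31 and not past the test with array brightness as a covariate, limma adjusted p = 0.0734), and Ecsit, an assembly factor that is also known from Toll-like receptor signalling, by 0.57. Acad9 and Tmem186, named after their values were seen, differed by -0.03 and -0.00. Both belong, with Ndufaf1 and Ecsit, to the intermediate assembly complex, so its measured members did not all pass.

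The other respiratory complexes differed in the same direction. Over all genes tested, 27.8% were called higher. Most genes of complexes III to V had mean values above 4. There 55.0% (values of 4 to 6) and 56.2% (above 6) of all genes were called higher, with medians of 0.33 and 0.34. The complex II list, unlike those of complexes III to V, mixes subunits (Sdha to Sdhd) with assembly factors (Sdhaf1 to Sdhaf4). Of its 8 genes 6 were higher (median 0.41), led by Sdhb, its iron-sulfur subunit, at 0.82. All its subunits were higher, and the genes that did not pass were the assembly factors Sdhaf1 (0.18) and Sdhaf4 (0.15). For complex III, 8 of 9 subunits were higher (median 0.71), led by Uqcrq at 0.93 and Cyc1, the cytochrome c1 heme protein, at 0.83. All 10 nuclear complex IV subunits listed were higher (median 0.68), led by Cox7b at 0.91 and Cox5a at 0.85, and all 14 measured subunits of complex V, the ATP synthase, were higher (median 0.59), led by Atp5g1, of its rotor ring, at 1.09. Complex I, with a median of 0.63 over the 36 subunits placed in a module, lay inside the range of the other complexes, and no difference between complexes was tested.

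Genes that encode known regulators of mitochondrial biogenesis were looked at beside the complexes. Of 11 measured, 3 were higher, 1 was lower and 7 did not pass, with a median of 0.15, where 27.8% of all genes were called higher and 21.5% lower. Tfb1m and Polrmt, which serve the mitochondrial ribosome and mitochondrial transcription, differed by 0.53 and 0.48. Ppargc1a, the coactivator PGC-1 alpha, was dim, with values of -3.07, -3.31, -1.82 and -2.36 on the LPS arrays, against -1.83, -2.02, -1.31 and -1.46 on the saline arrays, and the groups overlapped. Its difference of -0.98 ± 0.33 passed narrowly (limma, adjusted p = 0.0367) and ended under several alternatives, with array brightness as a covariate at -0.28 (adjusted p = 0.434).

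**Figure D5:**
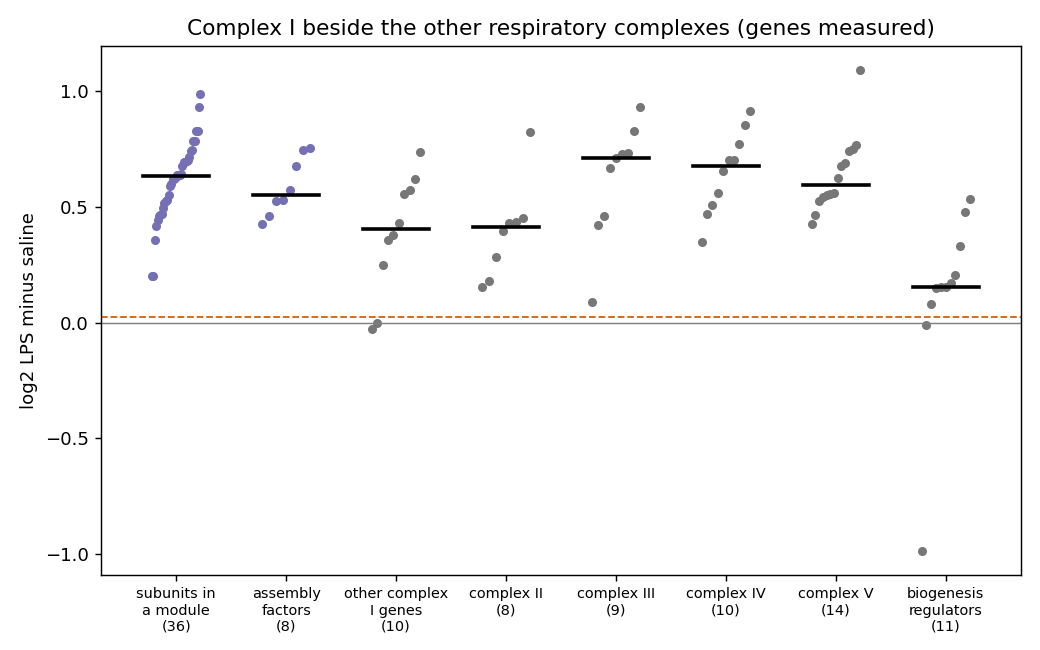
Log2 difference, LPS minus saline, of each measured gene (points) of complex I, of the other respiratory complexes and of the biogenesis regulators, with each list's median as a bar, zero as a grey line and the median of all genes tested as a dashed line. The 5 complexes lie mostly between 0.2 and 1.0, while the regulators centre on 0.15. The complex II points include its assembly factors.

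The promoters of the members were searched for binding motifs of factors known to act on respiratory genes. RefSeq promoter windows (GRCm38.p6, 250 bases before to 50 after the annotated start) were found for 40 of the 47 genes, 42 windows in all, and were searched on both strands beside all 32851 windows. The spaced repeat GCGCNNGCGC, the form bound by the transcription factor NRF1, occurred in 11 member windows (26.2%), against 6.23% of all windows. Its full palindrome GCGCATGCGC, a special case of it, occurred in 3 (7.14%), against 0.971%. CCGGAAG, an ETS site of the GABP type, occurred in 6 (14.3%) against 8.86%, and AAGGTCA, a site of the ERR receptors, in 3 (7.14%) against 4.72%. The YY1 site AAGATGG occurred in 8 (19.0%) against 6.34%, and all 8 matches lay 10 to 38 bases after the start. Member windows were richer in G and C, with a median of 59.3% against 52.7%, no difference in these shares was tested, and a match is only a match of letters.

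The full NRF1 palindrome lay before the start in Ndufaf4, at position -113, and in Ndufa11, at position -60, and after it in Ndufaf5, at position 16, with the start base as 0. The 250 bases upstream of Ndufaf4 and Ndufa11 are printed to show the site in its setting, with the palindrome in capitals. They come from RefSeq, GRCm38.p6, plus strand, at chr4:24897833-24898082 for Ndufaf4 and chr17:56717512-56717761 for Ndufa11.
Ndufaf4 promoter: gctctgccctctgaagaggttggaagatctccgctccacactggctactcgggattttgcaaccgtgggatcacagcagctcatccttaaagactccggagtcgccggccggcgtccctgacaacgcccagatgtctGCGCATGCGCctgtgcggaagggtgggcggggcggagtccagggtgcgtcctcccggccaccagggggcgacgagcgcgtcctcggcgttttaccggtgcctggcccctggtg
Ndufa11 promoter: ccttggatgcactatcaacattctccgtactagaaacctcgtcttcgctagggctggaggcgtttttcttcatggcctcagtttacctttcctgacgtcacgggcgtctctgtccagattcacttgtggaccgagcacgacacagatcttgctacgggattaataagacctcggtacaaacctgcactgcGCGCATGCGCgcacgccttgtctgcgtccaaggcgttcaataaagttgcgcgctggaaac

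Both of these genes were higher in LPS cells (0.53 and 0.71), as was Ndufaf5 (0.75). Of all 47 members 44 were called higher, against 27.8% of all genes tested. Among the 10 genes with the spaced repeat, all but Ndufa6 (0.20) passed the test. A link between these motifs and the differences was not tested.

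Many markers of cell types and of division also differed between the groups, in mixed directions, where 27.8% of all genes were called higher and 21.5% lower. The counts for the neutrophil, lymphocyte and neuron lists lay near these shares, and no list was tested against them. The cells carried the gene for CD11b, Itgam, which was itself higher in LPS cells (0.66 ± 0.10), as was Ptprc, the leukocyte gene for CD45 (0.93 ± 0.10). Of 8 microglia markers, 1 was higher and 3 were lower, and of 6 monocyte markers 4 were higher, with summed levels of 110 to 160 on LPS arrays, against 79.2 to 107 on saline arrays. All 12 cell cycle genes listed were higher, with a median of 0.96 and summed levels of 274 to 403 on LPS arrays, against 169 to 194 on saline arrays. Of 8 astrocyte markers 7 were lower, with summed levels of 15.1 to 20.1 on LPS arrays, against 26.2 to 32.8 on saline arrays. Of the neutrophil markers 3 of 8 were higher and 1 was lower, of the lymphocyte markers 3 of 7 were higher and 1 was lower, and of the endothelial markers 1 of 7 was higher and 4 were lower. Of the neuron markers 1 of 8 was higher and 2 were lower, and 6 of 9 oligodendrocyte lineage markers and 4 of 5 erythroid markers were lower. The part of monocytes, dividing cells or fewer other brain cells in the differences of complex I genes was not tested.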

How the data were processed

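Agilent single-colour arrays measured RNA of 8 samples. Per the labels, 50 ng of RNA was labelled with Cy3. Per the file headers and the submitters' processing notes, Agilent Feature Extraction 12.0.3.1 gave the deposited intensity values, with background removed by spatial detrending and each array left on its own scale. A value table from the authors holds deposited log2 values, centred per probe (correlation with centred scanner values 1.00, column medians -0.07 to 0.08), and served as an alternative. Log2 processed signals were set relative to the 75th percentile of their array. Outlier spots were dropped, 6 probes lacking a usable spot were left out, and a probe had to be well above background on 4 or more arrays (35494 probes). The brightest such probe stood for its gene, giving 22509 genes. They were fitted together with lmFit and eBayes of limma 3.58.1 (R 4.3.3), tested on simulated data. The precision is limited by 4 arrays a group. Members and lists were chosen with earlier results of these data known. Genes named were all assembly factors, the nuclear core subunits (1 of them is counted but not reported singly or drawn by name here), the 6 largest increases and decreases, Ndufa4 and Ndufa4l2, and up to 3 genes of each other list. Alternatives changed scaling, background, filters, probes, blocks, weights and single arrays.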

Additional observations from a re-analysis of the deposited data

Results flagged for a closer look

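On LPS array 3, 3 members lay far below the other 3 LPS arrays, by a gap above Dixon's critical value. Ndufa1 had 5.57 there, Ndufa4 had 4.76 and Ndufb1 had 5.34. They are 3 of 94 sets of 4 arrays examined, and chance alone marks about 1 set in 20. LPS array 3 was the lowest LPS array in 45 of 47 members. It was also the brightest LPS array, with a median processed signal of 17.3. Without it the subunit-named genes had a median difference of 0.72, with 36 higher. Over all genes tested, 7325 were then called higher and 5937 lower, against 6267 and 4837 with all arrays.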

How the results depend on the processing

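The precision is set by 4 arrays a group, and no member was near background. The subunit median, 0.64, was 0.85 with array-median scaling, 0.31 with quantile normalization and 0.39 with the signal covariate. The assembly factor median, 0.55, was 0.76 with array-median scaling, 0.40 with the signal covariate and 0.39 with the 75th percentile taken over bright probes, an alternative chosen after seeing the data, where the median of all genes was -0.13. Genes lower numbered 2 among the subunits with quantile normalization, Ndufa4l2 and Ndufa6. Quantile normalization turned Ndufa1 to -0.16, Ndufa6 to -0.17 and Ndufb11 to -0.0098. Over the other pathway lists, 1 gene was lower, against 5 with quantile normalization, 0 with no filter on dim probes, 0 with slide row as a block, 0 with the signal covariate and 0 to 1 when 1 array was left out. Over all genes, 4132 were higher with the signal covariate and 2619 lower with array-median scaling, against 6267 and 4837. Genes lower over all genes numbered 5598 with quantile normalization, 4311 with slide row as a block and 3343 with the signal covariate. They numbered 4285 with no filter on dim probes, where more genes were tested, and 3690 to 5937 when 1 array was left out. The cause of these changes was not tested. With quantile normalization the calls of Ndufa7, Ndufa13, Ndufb11, Ndufs8 and Ndufv3 were lost. With the signal covariate those of Ndufaf7, Ndufaf8, Ndufb11 and Ndufv3 were lost. Calls were also lost for Ndufb11 and Ndufaf8 without LPS replicate 1 or 2, and for Ndufaf8 without saline replicate 3 or 4. The mean of all probes of a gene lost those of Ndufa7 and Ndufs1 (0.15 and 0.11). The further probes of Ndufa7 and Ndufs1 were far dimmer than the probes used. Slide column as a block and array weights each called all 47 members, but both fits also called more of all genes. With slide column as a block, 33.3% of all genes were called higher and 27.2% lower. Array weights called 8168 higher and 6806 lower of the 22509 genes tested. The labels give no replicate numbers, so the only pairing tried was by slide column, which held an array of each group.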

Other observations

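Both X-linked members, Ndufa1 and Ndufb11, were among the 3 subunits placed in a module with the smallest differences, at 0.20 and 0.36. They were named after their values were seen. The other of these 3 subunits, Ndufa6 (0.20), lies on chromosome 15, and a link to the X chromosome was not tested.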
